A study of Drosophila melanogaster with 2 samples.

Results

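The mRNAs described here encode subunits of the RNA polymerases and the general transcription factors that place them on promoters. They were taken by name from the table of bound and total RNA in *Drosophila melanogaster* stage 14 oocytes, as the genes whose symbols begin with RpI, RpII, RpIII or Taf and a digit, with TfII, with Trf, or with Pbp and a digit, and *Tbp*. The names gave 39 of the 16863 genes in the table, of which 38 were above 0.5 FPKM in both libraries and *TfIIA-S-2*, a second gene for the small TFIIA subunit, was listed at 0 in both. FPKM is a fragment count scaled to transcript length and to library size, so levels can be compared between genes. Together they made up 0.336% of all FPKM in the immunoprecipitate and 0.204% in the input.

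The ME31B immunoprecipitate came from a lysate of stage 14 oocytes, mature and not yet activated, from flies labelled as w1118;eGFP-Me31B, and the input was the same kind of lysate with no antibody step. Each was sequenced as 1 library from a large pooled culture, so the error of each difference is unknown and no p-value is given. The labels give GFP-tagged Me31B and beads carrying anti-GFP or IgG without saying which made this library, whereas the methods give anti-GFP but w1118 flies, so the pull-down of tagged ME31B rests on both sources together. The background of RNA that beads with control IgG would retain was not analysed here. Germline mRNAs marked the samples as labelled, with *nos* at 1285 FPKM in the immunoprecipitate and 706 FPKM in the input and *dhd* at 13967 and 12458 FPKM, all 9 germline genes looked up being above 0.5 FPKM in both libraries. Eggshell mRNAs of the surrounding follicle cells were present as well, with *Cp15* at 309 FPKM in the immunoprecipitate and 520 FPKM in the input, and the part of follicle cell RNA in the values below was not tested. Fewer cells and less RNA per cell cannot be told apart in such pooled samples.

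ME31B is a DEAD-box RNA helicase that binds maternal mRNAs and holds back their translation. RNA polymerase I makes rRNA, RNA polymerase II makes mRNA and most snRNA, and RNA polymerase III makes tRNA and 5S rRNA. For polymerase II, the TATA-binding protein TBP and the TBP-associated factors (TAFs) form TFIID, which recognises the promoter, and TFIIA, TFIIB, TFIIE, TFIIF and TFIIH complete the start complex. The snRNA-activating complex SNAPc, called Pbp in the fly, binds the promoters of snRNA genes. The mature oocyte is largely silent in transcription, and its store of these mRNAs is known as a maternal supply for the embryo, which later starts its own genome.

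For each gene, occupancy was the ratio of immunoprecipitate to input FPKM, given as log2 relative to the median of the 6886 genes above 0.5 FPKM in both libraries, whose occupancy was 1.26. The low values gave a rough guide to depth. In 1054 genes below 0.5 FPKM in both libraries, ratios of immunoprecipitate to input piled up at 0.96 to 0.98 (62 genes) and 0.98 to 1.00 (56 genes), at 0.48 to 0.50 (43 genes) and at 0.32 to 0.34 (31 genes), as 1 read against 1, 2 or 3 reads would give in libraries of nearly equal depth. A single read in a gene of 1 kb was worth about 0.119 FPKM in either library, which corresponds to roughly 8410000 mapped reads in each, and the read numbers given below are upper guides from this value because spans include introns.

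As a whole, the 38 mRNAs lay a little above the typical oocyte mRNA and were widely spread around it. Their median was 0.31, with quartiles at −0.46 and 0.65, against 0 and quartiles at −0.63 and 0.55 for all genes. Against genes of similar genomic span, as described below, their median was −0.05. By a fixed rule of size, 4 of 38 (10.5%) exceeded the median gene by 2-fold or more, beside 9.48% of all genes, and 7 of 38 (18.4%) fell short of it by as much, beside 15.2% of all genes. Both shares were near those of all genes, so the set did not stand apart by these counts. Without centring on the median gene, the rule took 9 members above and 4 below, beside 1395 and 630 of all genes. The 24 Mediator subunit genes, which encode the coactivator between activators and polymerase II, gave a similar picture, with a median of 0.28, 3 genes above and 4 below. The members differed widely among themselves, with a distance of 5.70 on the log2 scale between the highest, *Pbp49* at 2.23, and the lowest, *Taf1* at −3.47. *Pbp49* shares its whole span with another gene, as described below. Members that overlap no other gene, which include neither of these, covered 3.21.

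**Figure D1:**
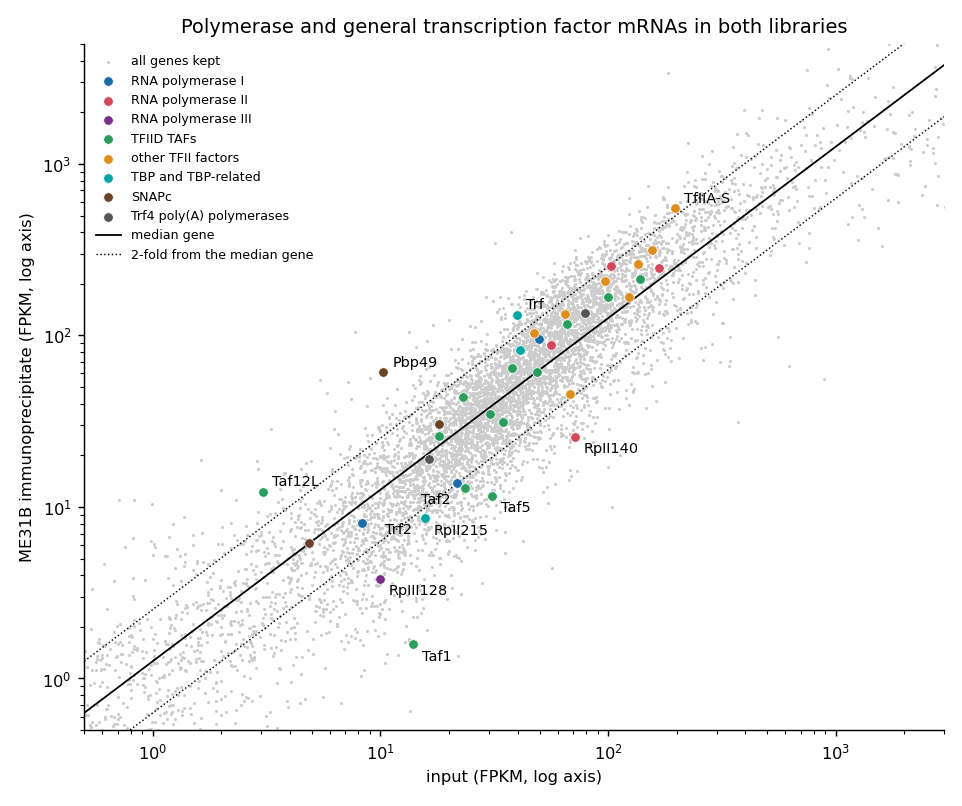
FPKM of each gene in the ME31B immunoprecipitate (vertical, log axis) against the input (horizontal, log axis), with all kept genes inside the axes in grey, the 38 polymerase and transcription factor genes coloured by class, the median gene as a solid line and 2-fold from it as dotted lines. The 4 genes above and 7 genes below the dotted lines are named, *Trf2* and *RpII215* lying on almost the same point, and *Taf1* is the farthest from the median gene, at 1.58 FPKM in the immunoprecipitate and 13.8 FPKM in the input.

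Among the polymerases, the mRNAs for the largest and second-largest subunits of polymerase II and for the second-largest subunit of polymerase III had low occupancy. *RpII140*, which encodes the second-largest subunit of polymerase II (chr3R:14125791-14130111 in dm6, Release 6), had 25.6 FPKM in the immunoprecipitate and 71.4 FPKM in the input, at −1.81. *RpII215*, which encodes the largest subunit with the repeated carboxy-terminal domain (chrX:11562800-11570326), had 8.50 FPKM in the immunoprecipitate and 15.6 FPKM in the input, at −1.21. They lay 3.51-fold and 2.32-fold below the median gene, in that order. *RpIII128*, for the second-largest subunit of polymerase III (chr2R:12039041-12042623), was similar at −1.72, with 3.81 FPKM in the immunoprecipitate and 9.92 FPKM in the input.

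The corresponding polymerase I mRNAs were less far down. *RpI1*, for the largest subunit, had 13.8 FPKM in the immunoprecipitate and 21.8 FPKM in the input and lay just inside the 2-fold limit at −0.997. *RpI135*, for the second-largest subunit, had 8.04 FPKM in the immunoprecipitate and 8.31 FPKM in the input, at −0.38. The small zinc-binding subunit *RpI12* was on the other side of the median at 0.61, with 95.7 FPKM in the immunoprecipitate and 49.8 FPKM in the input.

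The 3 small polymerase II subunits found by name all lay above the median gene. *RpII15*, the Rpb9 subunit, had 255 FPKM in the immunoprecipitate and 103 FPKM in the input, at 0.97, just inside the 2-fold limit. *RpII33*, the Rpb3 subunit, was at 0.32, and *RpII18*, the Rpb6 subunit that all polymerases share, at 0.22. Against genes of similar span, however, *RpII15* was at 0.38, *RpII33* at −0.27 and *RpII18* at −0.26. The 5 polymerase II mRNAs, whose proteins work in fixed proportion, covered 2.79 on the log2 scale.

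The table holds 20 more polymerase subunit genes under other names, recognised by their current RefSeq symbols (Polr1, Polr2 and Polr3), and they lay mostly above the median gene. Of these, 5 passed the 2-fold rule upward and 0 downward, beside 9.48% and 15.2% of all genes, and their median was 0.60. *Rpb5* was the highest at 1.58, with 236 FPKM in the immunoprecipitate and 62.9 FPKM in the input, followed by *Rpb12* at 1.26, CG13773 (Polr1F) at 1.22, *Rcp* (Polr3I) at 1.16 and *Rpb8* at 1.09. Rpb5, Rpb8 and Rpb12 are, like Rpb6, shared by the polymerases. The lowest was CG12267 (Polr3C) at −0.81, next to CG17209 (Polr3A), the largest polymerase III subunit, at −0.79. Against genes of similar span the median of the 20 was 0.19, and the 5 named as high were all inside 2-fold, with *Rpb5* at 0.98. On that scale *Rpb4*, at 0.97 against the median gene, was past 2-fold upward at 1.08, and CG12267 downward at −1.05. Of all genes, 7.37% were past 2-fold upward and 11.8% downward on that scale.

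Over the 13 genes with polymerase II symbols, the 2 with a genomic span of at least 3500 bp were *RpII140* and *RpII215*. The other 11 lay between 0.17 and 1.58 with a median of 0.71. Against genes of similar span these 11 lay between −0.37 (*Rpb7*) and 1.08 (*Rpb4*), and *Rpb7*, *Rpb10*, *RpII33* and *RpII18* had negative values. On that scale *RpII140* was at −1.58 and *RpII215* at −0.74. This bound of 3500 bp was not set beforehand. Over the 7 polymerase I genes, the 5 shorter ones had a median of 0.61. The 7 shorter polymerase III genes had a median of −0.01, with values between −0.81 and 1.16. One of the polymerase II genes, CG3773 (Polr2M), encodes a protein that associates with the enzyme and is not a core subunit. Several subunits serve more than one enzyme, so the division by symbol is only by name.

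**Figure D2:**
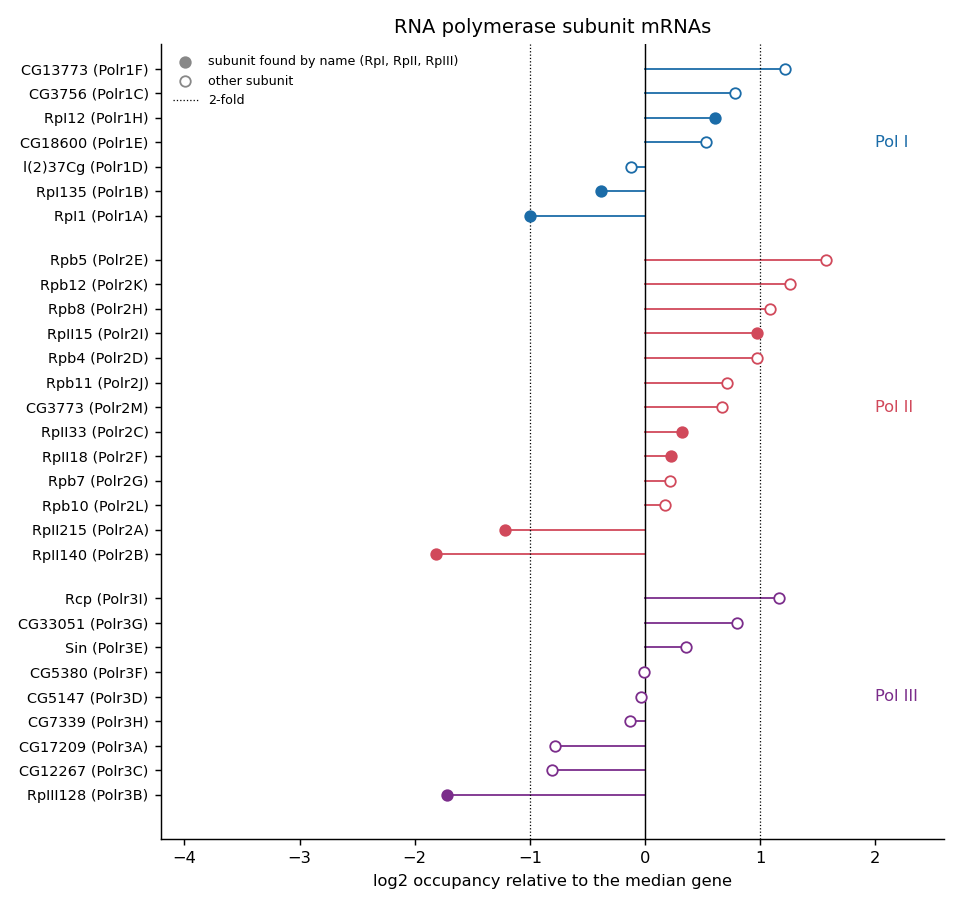
Log2 occupancy relative to the median gene for 29 RNA polymerase subunit mRNAs, grouped by the polymerase in the RefSeq symbol, with filled points for the 9 subunits found by the RpI, RpII and RpIII names and open points for the other 20. *RpII140*, *RpII215* and *RpIII128* lie below the dotted 2-fold line at −1 and 5 open points lie above that at 1.

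The 13 TAF mRNAs had a median close to the typical gene, 0.17, and the widest distance within any class, 5.14 on the log2 scale. *Taf1*, which encodes the largest TAF and scaffold of TFIID (chr3R:6646889-6656048), had 1.58 FPKM in the immunoprecipitate and 13.8 FPKM in the input. Its value of −3.47, 11.1-fold below the median gene, was lower than all but 0.160% of the genes kept. *Taf5*, for a WD-repeat subunit (chr2R:10877312-10879673), had 11.6 FPKM in the immunoprecipitate and 30.9 FPKM in the input, at −1.75. *Taf2*, which contacts DNA around the start site (chr3L:9884411-9888683), had 12.9 FPKM in the immunoprecipitate and 23.4 FPKM in the input, at −1.20. No other member of this class was lower than −0.49.

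Most of the other TAFs pair through histone-like folds. The 8 such members other than *Taf12L* are a grouping made after the values were seen that leaves out a high one. They lay between −0.49 and 0.59 with a median of 0.24, or −0.12 against genes of similar span. None of them was past 2-fold, beside 9.48% of all genes above and 15.2% below. *Taf4* was the lowest at −0.49, with 31.2 FPKM in the immunoprecipitate and 34.7 FPKM in the input. *Taf8* was the highest at 0.59, with 43.6 FPKM in the immunoprecipitate and 22.9 FPKM in the input. *Taf10* at 0.47, *Taf13* at 0.40, *Taf10b* at 0.30, *Taf12* at 0.17, *Taf11* at 0.00 and *Taf6* at −0.14 lay between them. Taf8 with Taf10, Taf11 with Taf13 and Taf4 with Taf12 are known partners. The gene *e(y)1* (Taf9), the partner of Taf6 that the names did not take, was at −0.14, the value of *Taf6*. Against genes of similar span, however, *e(y)1* was at −0.73 and *Taf6* at −0.20. *Taf7*, which binds Taf1 and has no such fold, was at 0.43.

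Both pairs of paralogous TAF genes among the members were present. *Taf10* and *Taf10b*, neighbours on chromosome arm 2L, had occupancies within 1.13-fold of each other, with 116 FPKM in the immunoprecipitate and 66.3 FPKM in the input for *Taf10* and 214 and 138 FPKM for *Taf10b*. *Taf12L*, a testis form of Taf12 (chr2L:4700835-4701485), had 12.3 FPKM in the immunoprecipitate and 3.04 FPKM in the input, at 1.68, against 25.8 and 18.1 FPKM and 0.17 for *Taf12*. The input value of *Taf12L* stands for at most about 16.7 reads, so its ratio is imprecise. Other testis forms of TAFs were near or at 0, with *nht*, *can* and *sa* listed at 0 in both libraries and *mia* at 0.528 FPKM in the immunoprecipitate and 0.243 FPKM in the input. Without *Taf12L*, the TAF median was 0.09.

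The remaining TFII factors found by name had a higher median and a narrower spread than the TAFs. TFIIH genes carry other names and are not among them, and the 9 looked up had a median of −0.49. Of the 8 found by name and measured, 7 lay above the median gene and the class median was 0.70 (SD over genes 0.64, against 1.29 for the TAFs). Only *TfIIA-S* was past 2-fold, beside 9.48% of all genes above and 15.2% below. *TfIIA-S*, the small TFIIA subunit (chr3R:23890388-23891060), was the most abundant of all 38 mRNAs, with 552 FPKM in the immunoprecipitate and 196 FPKM in the input, at 1.16. *TfIIA-L*, which is cleaved into the large TFIIA subunits, was at 0.69, with 315 FPKM in the immunoprecipitate and 155 FPKM in the input. *TfIIB*, the bridge between TBP and polymerase II, was at 0.77 with 208 and 97.0 FPKM, and *TfIIS*, which restarts stalled polymerase II, at 0.71 with 133 and 64.9 FPKM.

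The subunits of TFIIE and TFIIF did not sit together. *TfIIFbeta* was at 0.62, with 262 FPKM in the immunoprecipitate and 135 FPKM in the input, whereas *TfIIFalpha*, the larger partner, was at −0.92 with 45.3 and 68.1 FPKM. The occupancy of *TfIIFbeta* was thus 2.91-fold that of *TfIIFalpha*. Against genes of similar span *TfIIFbeta* was at 0.03 and *TfIIFalpha* at −0.99, a smaller distance. *TfIIEbeta* was at 0.79, with 103 FPKM in the immunoprecipitate and 47.2 FPKM in the input, and *TfIIEalpha* at 0.10 with 166 and 124 FPKM.

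TBP and its relatives covered both sides of the median gene. *Trf*, which takes the place of TBP in polymerase III transcription in the fly (chr2L:8072895-8073948), had 132 FPKM in the immunoprecipitate and 39.7 FPKM in the input, at 1.40, or 2.63-fold above the median gene. *Tbp* had 81.8 FPKM in the immunoprecipitate and 41.0 FPKM in the input, at 0.66. *Trf2*, which serves promoters without a TATA box (chrX:8409272-8433011), had 8.67 FPKM in the immunoprecipitate and 15.7 FPKM in the input, at −1.19. *Trf* and *Tbp* had nearly equal input levels, and the occupancy of *Trf* was 1.66-fold that of *Tbp*.

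**Figure D3:**
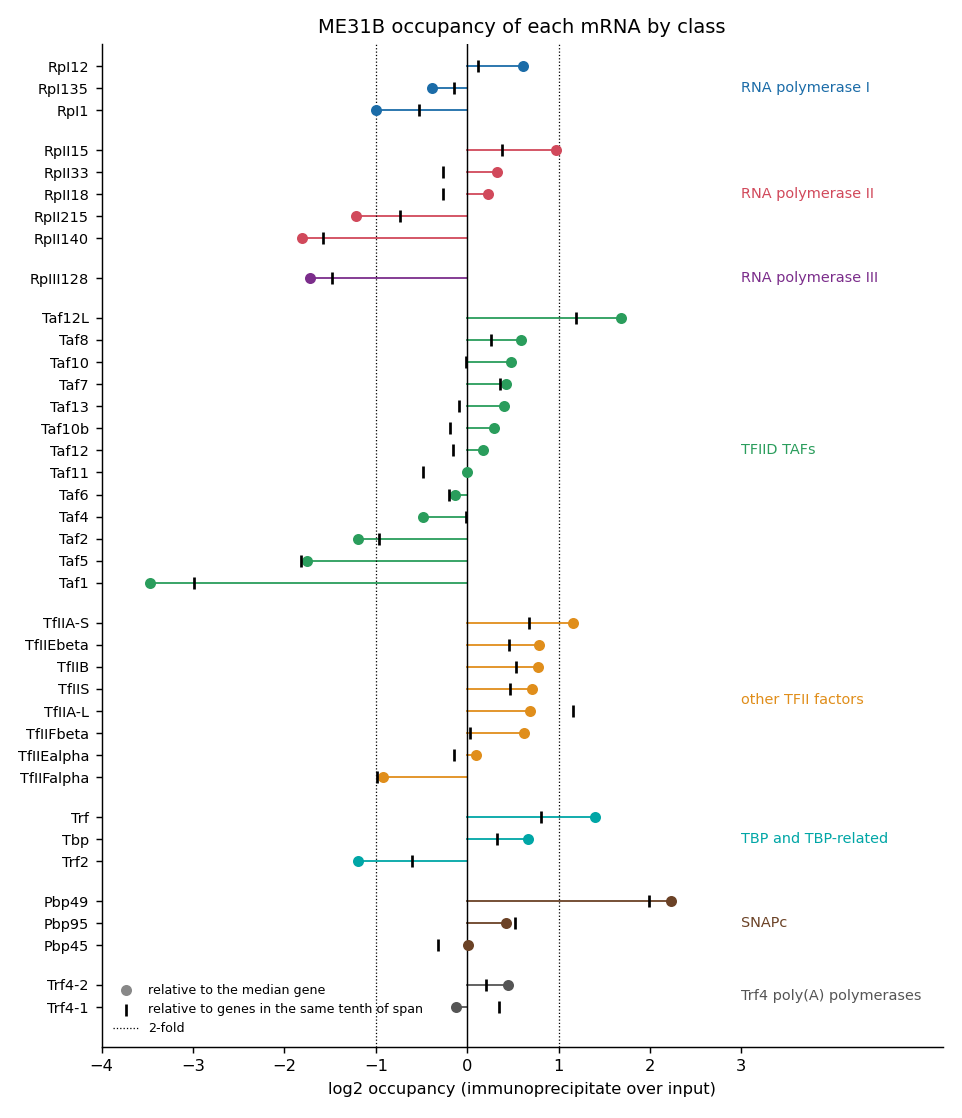
Log2 occupancy of each of the 38 mRNAs, grouped by class and ordered within it, relative to the median gene (coloured points and lines) and relative to the median of genes in the same class of genomic span (black ticks), with dotted lines at 2-fold. TFII factors found by name, which include neither TFIID nor TFIIH, lie mostly between 0 and 1, whereas the TAFs extend to −3.47 at *Taf1*.

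The 3 SNAPc mRNAs all overlap other genes. *Pbp49* (chr2R:8129354-8131323) had 60.8 FPKM in the immunoprecipitate and 10.3 FPKM in the input, at 2.23, or 4.69-fold above the median gene and above 99.6% of genes. Its annotated span is identical to that of CG42516, which had 25.1 FPKM in the immunoprecipitate and 50.3 FPKM in the input, at −1.33. *Pbp49* held 70.8% of the summed FPKM of this locus in the immunoprecipitate and 17.0% in the input. Summed over both genes, the locus had 86.0 FPKM in the immunoprecipitate and 60.6 FPKM in the input, at 0.17. The part in the value of *Pbp49* of how reads were divided between the genes was not tested.

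*Pbp95* was at 0.42, with 30.5 FPKM in the immunoprecipitate and 18.1 FPKM in the input, and overlaps CG2747, at −2.72, over 401 bp. Summed over both genes the value was −0.33, with *Pbp95* holding 91.3% of the sum in the immunoprecipitate and 54.2% in the input. The shared part is 14.2% of the span of *Pbp95*, so this sum joins mostly separate stretches. *Pbp45*, at 0.01, had 6.16 FPKM in the immunoprecipitate and 4.85 FPKM in the input, the lowest level of the 3 in both libraries. All of its 1370 bp lie within the span of *spn-E*, a piRNA pathway gene at −0.13, and its values stand for at most about 71.0 reads in the immunoprecipitate and 55.9 reads in the input. *Taf12L* was the third member lying wholly within another gene, but that gene, CG34351, was listed at 0 in both libraries. In all, 20 of the 38 spans overlap another annotated gene, *RpI1* by 7 bp and *Taf1* by 19 bp.

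*Trf2* and *TfIIA-L* overlap neighbours as well. *Trf2* shares 2387 bp with *lawc*, which had 266 FPKM in the immunoprecipitate and 75.9 FPKM in the input, at 1.47. *Trf2* held 3.16% of the FPKM summed over both genes in the immunoprecipitate and 17.1% in the input, and the part of reads from *lawc* in its value was not tested. Summed over both genes the value was 1.25, against −1.19 for *Trf2* alone. The shared part is 10.1% of the span of *Trf2*, and most of this sum is *lawc*. *TfIIA-L* contains the whole of *pll*, at 0.28, and held 85.7% of the FPKM summed over both in the immunoprecipitate and 81.9% in the input. Of the 18 members that overlap no other gene, 2 passed the 2-fold rule upward (*TfIIA-S* and *Trf*) and 4 downward (*Taf5*, *RpII140*, *RpII215* and *RpIII128*), beside 9.48% and 15.2% of all genes.

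The names also took *Trf4-1* and *Trf4-2*, which encode noncanonical poly(A) polymerases and not transcription factors. *Trf4-2* was at 0.45, with 136 FPKM in the immunoprecipitate and 78.9 FPKM in the input, and *Trf4-1* at −0.12 with 19.0 and 16.4 FPKM. Leaving them out, the median of the other 36 was 0.31 and the counts past 2-fold stayed at 4 and 7. *Brf*, the polymerase III factor that pairs with TBP or Trf, is spelled with a capital in the table and so fell outside the names. It was at −0.57, with 17.6 FPKM in the immunoprecipitate and 20.7 FPKM in the input. *TAF1B* and *TAF1C-like*, named after human polymerase I factor subunits, are written in capitals and were left out likewise. *TAF1B* was at −1.46, with 9.58 FPKM in the immunoprecipitate and 20.9 FPKM in the input, and *TAF1C-like* at −0.49.

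Genomic span moved with occupancy in these genes as it did in all genes. All 7 members past the 2-fold rule downward had spans of at least 2000 bp, and all 4 past it upward had shorter spans. The bound of 2000 bp was not set beforehand, and the split depends on where it was put. It lies between the longest high member, *Pbp49* at 1970 bp, and the shortest low member, *Taf5* at 2362 bp. The 22 members under 2000 bp had a median of 0.60, and the 16 others a median of −0.96. Across the 38 genes, which share the same libraries and are not independent, the Spearman correlation between occupancy and span was −0.59, beside −0.41 across 6869 genes. Span includes introns, transcript length was not used here, and the part of span in these values was not tested.

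Genes were also split by span into 10 classes of nearly equal number, and each member was set against the median of its class. On that scale 4 members were at least 2-fold low, each of them also low against the median gene, and 3 at least 2-fold high. These shares were again near those of all genes, of which 11.8% were low and 7.37% high on this scale. The low ones were *Taf1* at −2.99, *Taf5* at −1.82, *RpII140* at −1.58 and *RpIII128* at −1.48. *RpII215*, *Taf2* and *Trf2* came within 2-fold on this scale, at −0.74, −0.96 and −0.61. The high ones were *Pbp49* at 1.99, *Taf12L* at 1.19 and *TfIIA-L* at 1.15, whereas *Trf* was at 0.80 and *TfIIA-S* at 0.67. *Taf4*, with a span of 8440 bp close to the 9160 bp of *Taf1*, was at −0.01, while *Taf1* remained lowest. The median of the 38 was −0.05 on this scale, and that of the 8 TFII factors was 0.46.

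**Figure D4:**
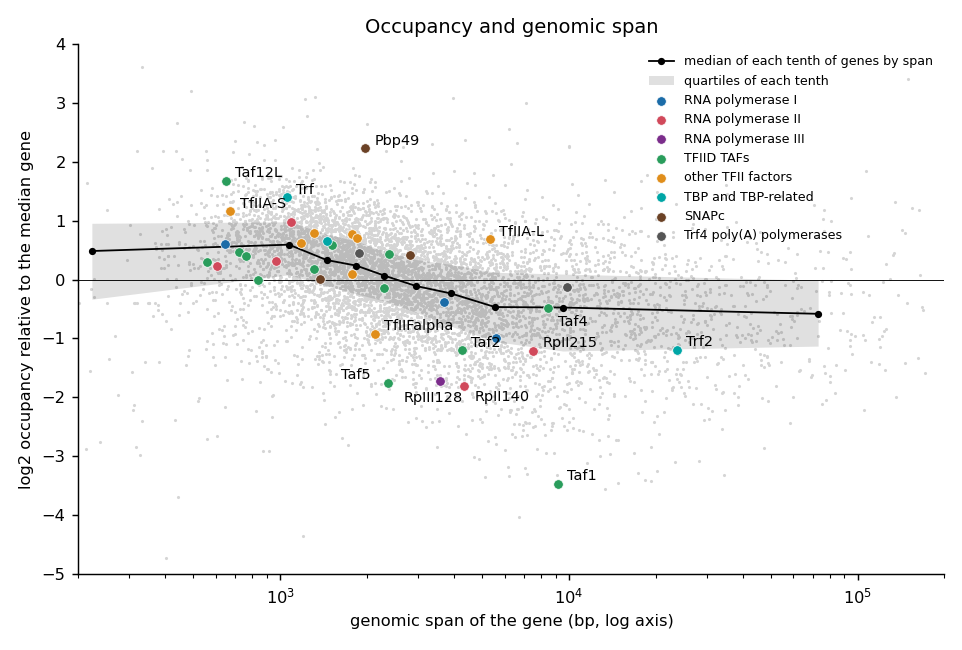
Log2 occupancy relative to the median gene (vertical) against genomic span in bp (horizontal, log axis), with all kept genes inside the axes in grey, the median of each of 10 classes of genes by span as a black line drawn at the geometric middle of the class, its quartiles as a band, and the 38 genes coloured by class. *Taf1* and *Taf5* lie below the band and *Pbp49* above it, while *Taf4* lies on the line.

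Other parts of the transcription machinery were looked up from lists of known subunits. TFIIH is the helicase and kinase complex that opens the promoter. None of its 9 genes was past 2-fold, beside 15.2% of all genes below and 9.48% above. Their median was −0.49, between *Tfb1* at −0.99 and *Tfb4* at 0.76. Of 17 polymerase II elongation factor genes, 5 passed the 2-fold rule downward and 1 upward, beside 15.2% and 9.48% of all genes, with a median of −0.36. Against genes of similar span that median was −0.00. *Spt6*, a histone chaperone that travels with polymerase II, was the lowest at −1.88 and *Nelf-E*, a pausing factor, the highest at 1.21.

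Of 15 SAGA genes outside the TAFs, 2 were low and none high, beside 15.2% and 9.48% of all genes. Their median was −0.12, with *Spt20* at −1.57 and *Sgf11* at 0.91 as the extremes. The Integrator complex, which cuts the snRNA transcripts that SNAPc starts, had 6 of 14 mRNAs past the 2-fold rule downward and 0 upward, beside 15.2% and 9.48% of all genes. Its median was −0.91, or −0.76 against genes of the same span class, with *IntS1* lowest at −2.68 and *IntS12* highest at 0.50. The 6 regulators of TBP and factors of polymerases I and III had a median of 0.57. *Maf1*, the repressor of polymerase III, was the highest at 1.48, with 437 FPKM in the immunoprecipitate and 124 FPKM in the input. *Hel89B*, which removes TBP from DNA, was the lowest at −1.86, with 4.72 FPKM in the immunoprecipitate and 13.6 FPKM in the input.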

How the data were processed

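RNA from 1 ME31B immunoprecipitate and 1 input lysate was rRNA-depleted, made into stranded libraries and read as 50-base single ends. By their methods and processing notes, the authors converted reads with bcl2fastq 2.17, mapped them with STAR 2.5.2a to dm6 and quantified genes with Cufflinks 2.2.1. The authors deposited 1 column of FPKM for each library, with no scaling between libraries stated. The annotation release, the use of strand and the handling of reads shared between genes are in none of the sources used here, so values of overlapping genes and paralogs are uncertain.

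Occupancy was computed with pandas 2.3.3 for 6886 genes that exceeded 0.5 FPKM in each library, without a pseudocount, centred on the median gene, and read by a 2-fold size rule, since 1 library per group allows no test. The computation was tested on simulated data. Members and lists were chosen with earlier results of these data known. Named in full are the highest and lowest of each class, all members past 2-fold and all members of small classes; other values of members are given as examples. RefSeq's gene table (Release 6) held the symbols of all 39 members and 6869 of the 6886 genes, 35 of them by elimination among shared synonyms. Spans and overlaps come from that table. *Tfb5* of the TFIIH list and *SF3b5* and *SF3b10* of the SAGA list were not found by these names. Of marker genes, 9 of 10 follicle cell, 5 of 5 gut and 1 of 3 muscle genes were above 0.5 FPKM in both libraries, as was *Taf12L* alone of 8 testis genes. No sequence was used. Alternatives in filter, pseudocount, centring and size rule were tried.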

Additional observations from a re-analysis of the deposited data

How the results depend on the processing

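No paired analysis was possible because each group has 1 library. The median of the members moved by less than 1.5-fold under each alternative tried, but that limit is wider than its distance from the median gene. From 0.31 it fell to 0.12 against genes of similar input FPKM and to −0.05 against genes of similar span. Among members that overlap no other gene it was 0.05. It was 0.63 with no filter and pseudocount 0.5 together, and 0.64 without centring. With no filter and pseudocount 0.5 together, 9 members were above and 4 below by the 2-fold rule, beside 1461 and 662 of all genes. Without centring, which shifts every gene by 0.33, 9 and 4 members and 1395 and 630 genes were called. At 1.5-fold, 13 members were above and 9 below, with 1639 genes above and 1808 below. At 3-fold, 2 and 4 members and 123 and 410 genes were called. Above 5 FPKM in both libraries the SNAPc median was 1.28, with *Pbp49* and *Pbp95* left. Among members that overlap no other gene, a choice made after the data were seen, 2 were above and 4 below, the polymerase II median was −0.49 and *Trf* alone gave the TBP class 1.40. *Taf1* was at −2.79 with no filter and pseudocount 0.5 together, and at −2.83 with pseudocount 1 and the filter kept. Centring on genes of similar input FPKM kept 4 of 4 high and 5 of 7 low members past 2-fold, and centring on genes of similar span, also chosen after the data were seen, kept 2 of 4 and 4 of 7. Centring on protein length was not run because no protein lengths were at hand.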
